A study of Homo sapiens with 8 samples.

Results

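The genes described here are 53 interferon-stimulated genes, taken by symbol from a list of well-known members of this class, out of 27475 human genes in a table made by mRNA-seq, whose unit, TPM, is a read number scaled to transcript length and to the size of the library. They were measured in UM-UC-3 and RT112, established human bladder cancer cell lines, in 8 libraries that form 4 groups of 2. The groups were UM-UC-3 Scr, UM-UC-3 siPAI-1, RT112 Scr and RT112 siPAI-1. In the Scr groups the cells received a pool of 3 scrambled negative control siRNAs, and in the siPAI-1 groups a pool of 3 siRNAs against PAI-1. All 4 groups were transfected with 100 pmol of siRNA, using the reagent INTERFERin, for 72 h. No untransfected library was analysed here, so every value is that of a cell that had taken up siRNA. Each condition is represented by a single cell line and a single pool, and the study describes 3 independent knock-down experiments, whereas 2 libraries of each group were analysed here and their link to those experiments is not given in the sources used here. The p-values therefore measure the spread between these libraries, which may be technical.

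Interferons are secreted proteins that cells release when their sensors meet foreign nucleic acid, including double-stranded RNA. They bind cell surface receptors, whose kinases activate a transcription factor complex containing STAT2 and IRF9, called ISGF3. This complex binds a short promoter sequence, the interferon-stimulated response element (ISRE), and switches on genes whose products block viral entry, copying and translation, tag proteins with ISG15, or cut peptides for antigen presentation. Many of these genes also have a basal level in the absence of interferon.

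The libraries had an estimated depth of 29.3 to 34.2 M reads, a value read from the steps of the deposited values, for which a depth 2 times as large would do as well. RT112 libraries held the urothelial and epithelial markers used for the check, with EPCAM at 327 to 344 TPM. UM-UC-3 libraries had EPCAM at 0.14 to 0.46 TPM and VIM, a mesenchymal intermediate filament, at 2852 to 3142 TPM. The other mesenchymal markers were split between the lines in Scr. ZEB1 went with VIM, with a log2 difference of -7.07 for RT112 minus UM-UC-3. CDH2 and FN1 were higher in RT112, by 0.96 and 0.79 on that scale (limma adjusted p = 0.00621 and 0.00248). Among siPAI-1 libraries neither CDH2 nor FN1 passed (limma adjusted p = 0.867 and 0.468). In UM-UC-3 most of the defining urothelial markers were absent or low, with KRT18, at 167 to 186 TPM, and KRT8, at 31.2 to 42.1 TPM, as the highest. Of the markers of leukocytes, plasmacytoid dendritic cells, endothelium and fibroblasts, COL1A2 was at 0 in all 8 libraries, PTPRC did not exceed 0.03 TPM, and the highest value was 6.95 TPM for COL1A1. PECAM1, an endothelial marker, was at 0.48 and 0.39 TPM in RT112 Scr and at 1.41 and 1.76 TPM in RT112 siPAI-1, and went from 0.57 and 0.50 TPM in UM-UC-3 Scr to 0.21 and 0.12 TPM in UM-UC-3 siPAI-1. LILRA4, a marker of plasmacytoid dendritic cells, was listed at 0 in all 4 Scr libraries, at 0.24 and 0.42 TPM in UM-UC-3 siPAI-1 and at 0.25 and 0 TPM in RT112 siPAI-1. CD14, a monocyte marker, was at 0.50 and 0.37 TPM in UM-UC-3 Scr and between 0.09 and 0.12 TPM in the other 6 libraries. None of these siRNA differences passed the adjusted threshold, and their part in the results was not tested. RT112 siPAI-1 replicate 1 stood apart from the other RT112 libraries. Its genes lay a median of 0.14 on the log2 scale from the median of the others, against 0.11 to 0.12 for those libraries, and its FN1 level was 58.3 TPM against 108 to 120 TPM.

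RefSeq promoter windows on GRCh38.p14, running from 250 bases before to 50 bases after a start site, were at hand for 42 of the 53 genes. The core ISRE, searched on either strand as GAAA, then any 2 bases, then GAAA again (TTTC on both sides when read on the other strand), was present in at least 1 window of 30 of these 42 genes (71.4%), against 1195 of all 27305 genes with a window (4.38%). The interferon-gamma-activated sequence GAS, searched as TTCNNNGAA on either strand, was present for 14 of 42 (33.3%), against 9.38% of all genes. The patterns can share bases where they adjoin, each was counted on its own, and a match is a description of letters rather than a bound site. The following 8 stretches belong to genes with an ISRE match wholly before a start site. Among such genes, they had the largest log2 differences in Scr, higher in UM-UC-3 (IFI44, ISG20, IFI6, IFITM3) or in RT112 (BST2, EPSTI1, GBP1, MX1). Genes without a window or such a match were passed over, so every stretch carries the motif by choice. Each is printed from 5′ to 3′ on the strand of its gene, ends upstream of the start site, and has its ISRE matches in capitals.
IFI44 (chr1:78649751-78649788, plus strand): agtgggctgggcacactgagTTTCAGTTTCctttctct
ISG20 (chr15:88638927-88638976, plus strand): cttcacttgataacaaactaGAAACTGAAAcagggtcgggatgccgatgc
IFI6 (chr1:27672256-27672368, minus strand): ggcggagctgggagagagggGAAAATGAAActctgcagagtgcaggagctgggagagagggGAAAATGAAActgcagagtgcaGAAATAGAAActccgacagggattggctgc
IFITM3 (chr11:320866-320932, minus strand): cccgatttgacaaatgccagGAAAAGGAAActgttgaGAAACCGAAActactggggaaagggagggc
BST2 (chr19:17405725-17405780, minus strand): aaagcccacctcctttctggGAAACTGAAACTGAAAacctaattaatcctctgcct
EPSTI1 (chr13:42992262-42992311, minus strand): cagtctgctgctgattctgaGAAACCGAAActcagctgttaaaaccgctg
GBP1 (chr1:89065306-89065355, minus strand): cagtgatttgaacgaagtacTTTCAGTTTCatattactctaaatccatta
MX1 (chr21:41431834-41431883, plus strand): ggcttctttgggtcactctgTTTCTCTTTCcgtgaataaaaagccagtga
IFI6 carried 3 matches in its window, IFITM3 carried 2 separate ones and BST2 carried 2 that overlap, while the others shown had 1 in the stretch. The stretches of ISG20 and MX1 lie ahead of a start site inside the span that RefSeq gives to the whole gene. The motif was present in genes of either direction: 15 of the 19 genes with a window that were higher in RT112 Scr had an ISRE (78.9%), as did 9 of the 14 that were higher in UM-UC-3 Scr (64.3%) and 6 of the 9 that did not pass the test (66.7%). GAS was found in 8 of these 19 (42.1%), 2 of the 14 (14.3%) and 4 of the 9 (44.4%), values given as a description with no test.

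Both cell lines transcribed nearly the whole set without added interferon, but at levels that spanned from 0 to 549 TPM. In UM-UC-3, 20 of the 53 genes averaged 10 TPM or more over its 4 libraries, 22 had between 1 and 10 TPM and 11 had less than 1 TPM. In RT112 the corresponding numbers were 18, 23 and 12. None was at 0 in all 4 libraries of a line. The summed level of the 53 genes was 1025.0 to 1102.8 TPM in the UM-UC-3 libraries and 1290.1 to 1369.9 TPM in the RT112 libraries. This order turned once LGALS3BP, a secreted glycoprotein and the highest gene of the set in RT112, was left out, with 865.1 to 932.9 TPM in UM-UC-3 and 771.0 to 820.8 TPM in RT112. Replicates of a group differed by a median of 0.16 to 0.26 on the log2 scale over the 47 members that averaged 1 TPM or more, and 2 to 7 of these differed by at least 2-fold between the replicates of a group.

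**Figure D1:**
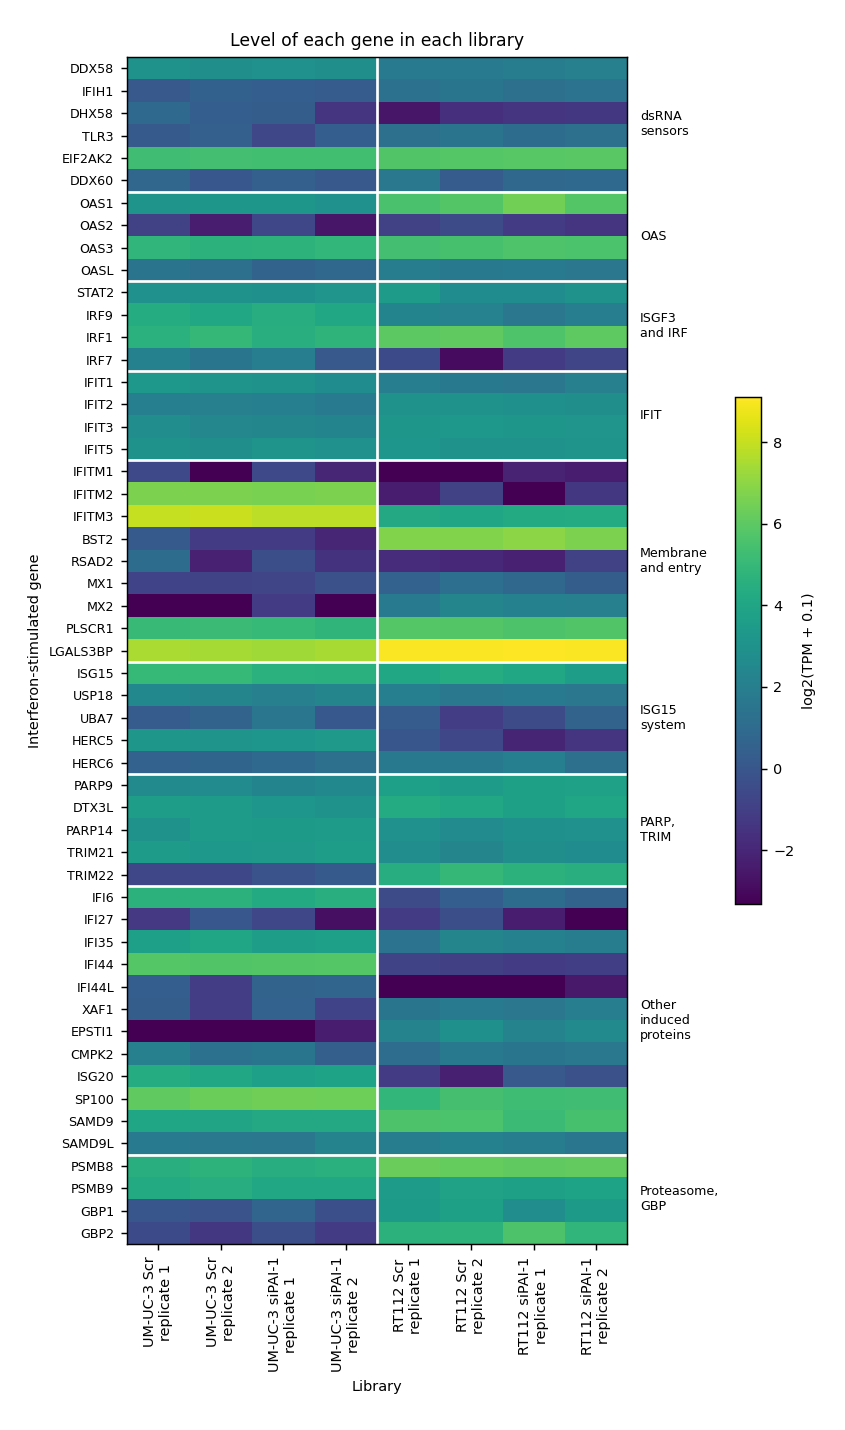
Heat map of log2(TPM + 0.1) for the 53 interferon-stimulated genes (vertical axis, grouped by role) in the 8 libraries (horizontal axis, by cell line and siRNA). The colours change at the border between UM-UC-3 and RT112 rather than between Scr and siPAI-1, as for IFI44 at 53.05 to 57.31 TPM in UM-UC-3 and 0.35 to 0.49 TPM in RT112.

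The comparison of RT112 Scr with UM-UC-3 Scr asked how far the levels of these genes differed between the 2 cell lines after transfection with control siRNA. Basal levels of untransfected cells were not measured. These are bulk levels, so that fewer cells with a transcript and less of it per cell cannot be told apart. The set did not differ in a single direction: 23 genes were higher in RT112 and 17 were higher in UM-UC-3 at a limma adjusted p under 0.05, and 13 did not pass. In all, 40 of 53 (75.5%) passed, against 51.6% of all 19201 genes tested, with 25.3% of all genes higher and 26.3% lower in RT112. Among genes averaging 1 TPM or more, 38 of 47 members (80.9%) passed against 64.6% of all genes. All 53 members passed the filter on low values, which asked only for a value above 0 in 1 of the libraries compared. The median log2 difference of the 53 genes was 0.30 (RT112 minus UM-UC-3) against -0.06 over all genes, and the median of its size without sign was 1.23 against 0.74. With a library left out, fewer members and fewer of all genes were called. The members came to 21 without UM-UC-3 Scr replicate 1 (40.4%, against 34.4% of all genes tested), 21 without UM-UC-3 Scr replicate 2 (39.6%, against 35.0%), 17 without RT112 Scr replicate 1 (32.1%, against 30.9%) and 19 without RT112 Scr replicate 2 (35.8%, against 30.3%), fits in which the lone sample of a group is assumed to vary like the other group. Called in the full comparison and in each of these 4 were 11 genes: OAS1, IFIT2, IFITM3, MX2, PLSCR1, LGALS3BP, TRIM22, IFI44, EPSTI1, SAMD9 and GBP1.

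**Figure D2:**
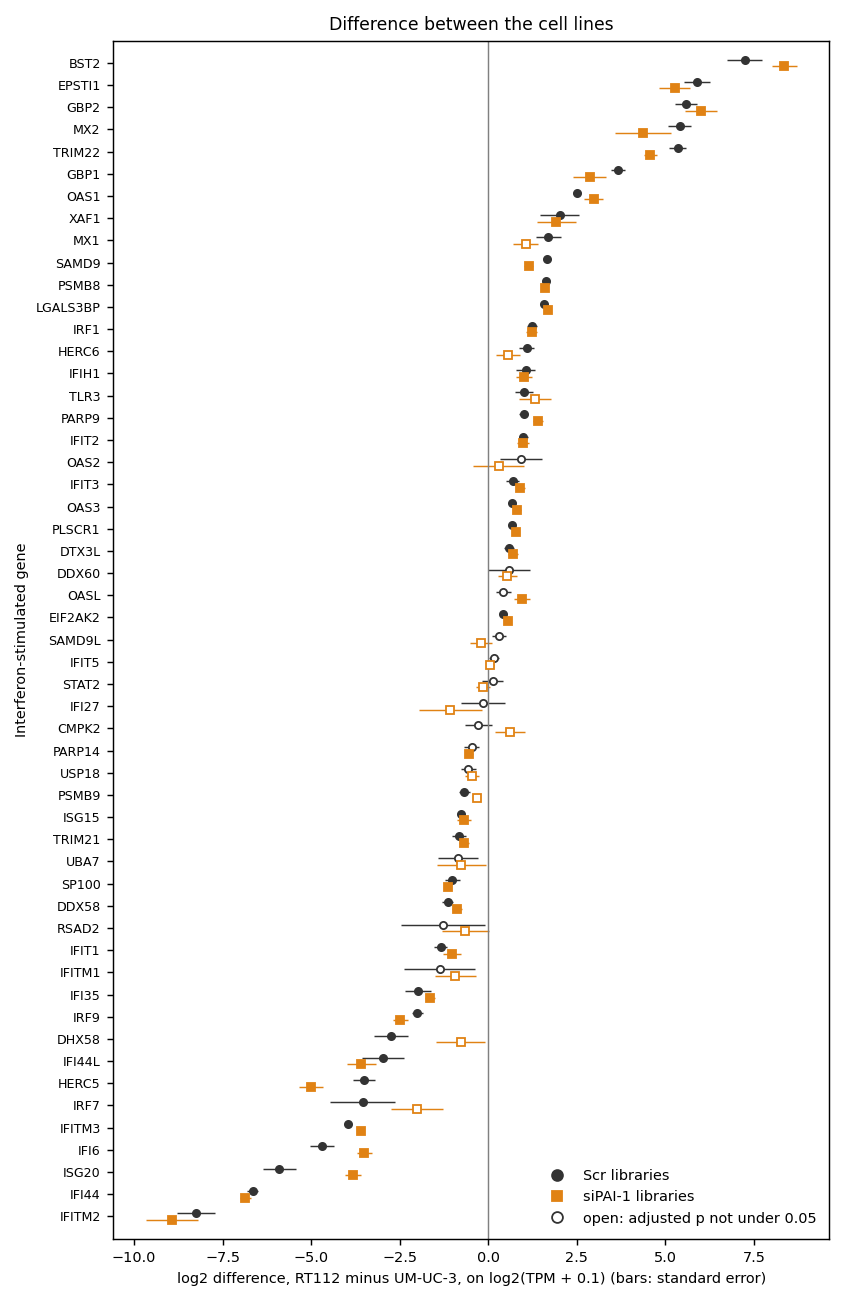
Log2 difference between the cell lines (RT112 minus UM-UC-3, horizontal axis, on log2(TPM + 0.1)) for each interferon-stimulated gene (vertical axis, sorted by the Scr value), in Scr libraries (circles) and siPAI-1 libraries (squares), with standard errors as bars and open symbols where the adjusted p was not under 0.05. The values run from -8.25 for IFITM2 to 7.24 for BST2 in Scr, and 50 of 53 genes have the same sign in both comparisons.

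In the following, 4 values for a cell line are those of Scr replicates 1 and 2 and then of siPAI-1 replicates 1 and 2, all in TPM, and log2 differences are those of RT112 Scr minus UM-UC-3 Scr with n = 2 against 2. They are on the log2(TPM + 0.1) scale, which understates differences of low genes. TPM is scaled to transcript length, so that levels of different genes can be set side by side. Fold values are ratios of the Scr means in TPM. Leaving out 1 library moved this ratio by over 1.5 times for 6 of the 40 called genes, namely BST2, ISG20, IFITM2, IRF7, DHX58 and XAF1, each of which had a group with under 1.5 TPM in both Scr libraries. MX2, EPSTI1 and IFI44L were called too, but were listed at 0 in both Scr libraries of a line. They have no such ratio and could not be checked in this way.

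Among the 6 sensors of double-stranded RNA, 3 were higher in RT112 and 2 in UM-UC-3. DDX58, which encodes RIG-I, a helicase that senses RNA with a triphosphate end, stood at 8.04, 7.31, 7.69 and 7.09 TPM in UM-UC-3 and at 3.40, 3.45, 3.80 and 4.13 TPM in RT112. Every UM-UC-3 value lay above every RT112 value, and the log2 difference was -1.14 (SE 0.15, adjusted p = 0.00584). IFIH1, which encodes MDA5, the sensor of long double-stranded RNA, went the other way, at 1.01 to 1.36 TPM in UM-UC-3 and 2.30 to 2.73 TPM in RT112 (log2 difference 1.05, SE 0.27, adjusted p = 0.037). TLR3, the endosomal sensor, was also higher in RT112 (log2 difference 1.00, adjusted p = 0.0351), and DHX58, which encodes their regulator LGP2, was higher in UM-UC-3 (-2.75, adjusted p = 0.0121), with a ratio of the Scr means of 6.84 without RT112 Scr replicate 1 and 21.5 without RT112 Scr replicate 2. EIF2AK2, which encodes PKR, a kinase that stops translation when it binds double-stranded RNA, was the highest sensor of either line and the most even, at 38.6, 42.4, 40.7 and 40.8 TPM in UM-UC-3 and at 52.4, 56.2, 58.2 and 61.3 TPM in RT112 (log2 difference 0.42, SE 0.08, adjusted p = 0.0172). DDX60 did not pass the test, with a 95% interval of the log2 difference from -1.06 to 2.21.

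The oligoadenylate synthetases make a small messenger in response to double-stranded RNA. OAS1 stood at 8.41, 9.30, 9.54 and 7.79 TPM in UM-UC-3 and at 46.7, 55.1, 87.1 and 54.1 TPM in RT112. The lines did not overlap, the Scr means differed 5.74-fold (log2 difference 2.51, SE 0.12, adjusted p = 0.000631), and the highest value belonged to RT112 siPAI-1 replicate 1. OAS3 lay at 25.1 to 29.9 TPM in UM-UC-3 and 41.9 to 51.1 TPM in RT112 (log2 difference 0.68, SE 0.09, adjusted p = 0.00645). OAS2 was under 1 TPM in every library, and neither it nor OASL passed the test in Scr.

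Of the 4 transcription factors, IRF9 and IRF7 were higher in UM-UC-3 and IRF1 in RT112. IRF9, the DNA-binding subunit of ISGF3, stood at 20.8, 16.8, 21.3 and 17.4 TPM in UM-UC-3 and at 4.69, 4.47, 2.93 and 3.86 TPM in RT112, with no overlap. The difference was 4.10-fold in Scr (log2 difference -2.0, SE 0.16, adjusted p = 0.00147). STAT2, its partner, did not pass the test, at 7.36 to 8.93 TPM in UM-UC-3 and 6.55 to 11.2 TPM in RT112 (95% interval of the log2 difference -0.68 to 0.92). IRF1, an activator that responds mainly to interferon gamma, was at 24.4, 31.2, 22.3 and 27.1 TPM in UM-UC-3 and at 62.7, 66.7, 51.8 and 64.1 TPM in RT112 (log2 difference 1.23, SE 0.14, adjusted p = 0.00394). IRF7, which amplifies interferon production, was at 1.01 to 4.34 TPM in UM-UC-3 and 0.03 to 0.60 TPM in RT112, with replicates of UM-UC-3 siPAI-1 at 3.93 and 1.01 TPM (log2 difference -3.55, SE 0.93, adjusted p = 0.0377). The ratio of its Scr means was 5.87 without RT112 Scr replicate 2 and 117 without RT112 Scr replicate 1.

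The IFIT proteins bind foreign RNA and block its translation, and their genes split between the lines. IFIT1 stood at 9.80, 8.50, 7.94 and 6.48 TPM in UM-UC-3 and at 3.94, 3.17, 2.89 and 4.16 TPM in RT112 (log2 difference -1.34, SE 0.19, adjusted p = 0.00673). IFIT2 had the opposite order, at 4.07, 4.13, 4.02 and 3.33 TPM in UM-UC-3 and at 8.27, 8.23, 7.42 and 7.21 TPM in RT112 (0.99, SE 0.14, adjusted p = 0.00633). IFIT3, which stabilises IFIT1, went with IFIT2 (0.69, SE 0.18, adjusted p = 0.0361). IFIT5 was near 8 TPM throughout, at 7.20 to 8.59 TPM in UM-UC-3 and 8.22 to 9.04 TPM in RT112, with a 95% interval of the log2 difference from -0.21 to 0.56. All 4 genes overlap the RefSeq span of LIPA, and the strand setting of the counting is not given in the sources used here.

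The factors that act at membranes and on viral entry held the widest contrasts. IFITM3, a membrane protein that blocks fusion of viruses in endosomes, was the highest interferon-stimulated gene of UM-UC-3, at 258, 272, 235 and 234 TPM, and stood at 17.9, 16, 19.3 and 19.6 TPM in RT112. The Scr means differed 15.7-fold (log2 difference -3.96, SE 0.08, adjusted p = 0.000274). Its neighbour IFITM2 stood at 102, 99.9, 96.1 and 101 TPM in UM-UC-3 but at 0.10, 0.45, 0.00 and 0.31 TPM in RT112 (log2 difference -8.25, SE 0.53, adjusted p = 0.000997). At the estimated depth, IFITM2 had about 2, 8, 0 and 6 reads in RT112. The ratio of its Scr means was 224 without RT112 Scr replicate 1 and 1010 without RT112 Scr replicate 2. IFITM1 did not exceed 0.57 TPM in any library. The 3 genes are related in sequence, so the way reads were shared among them could move these values, and the settings of that step are not given in the sources used here. BST2, which encodes tetherin, a protein that holds budding virus on the cell surface, was the mirror image of IFITM2. It stood at 1.04, 0.35, 0.36 and 0.15 TPM in UM-UC-3 and at 109, 106, 122 and 101 TPM in RT112, with a log2 difference of 7.24 (SE 0.49, adjusted p = 0.00107). The ratio of the means was 155 in Scr, 104 without UM-UC-3 Scr replicate 2, 308 without UM-UC-3 Scr replicate 1 and 439 in siPAI-1. MX2, a dynamin-like restriction factor, was listed at 0 in 3 of the 4 UM-UC-3 libraries and at 0.34 TPM in the other, and stood at 3.5, 4.87, 4.27 and 4.17 TPM in RT112 (adjusted p = 0.000903). MX1 lay at 0.47 to 0.75 TPM in UM-UC-3 and 1.17 to 2.25 TPM in RT112 (log2 difference 1.70, SE 0.35, adjusted p = 0.0194). LGALS3BP stood at 183, 170, 160 and 176 TPM in UM-UC-3 and at 519, 526, 549 and 524 TPM in RT112, with the groups far apart and the replicates close (log2 difference 1.57, SE 0.05, adjusted p = 0.000372). PLSCR1, a phospholipid scramblase, was at 28.3 to 35.7 TPM in UM-UC-3 and 49.8 to 56.2 TPM in RT112 (0.66, SE 0.06, adjusted p = 0.00263).

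In the ISG15 system, in which a ubiquitin-like protein is joined to targets during the interferon response, ISG15 itself was higher in UM-UC-3. It stood at 32.2, 32.2, 24.4 and 23.6 TPM in UM-UC-3 and at 17.3, 20.8, 17.7 and 12.4 TPM in RT112 (log2 difference -0.76, SE 0.12, adjusted p = 0.00884). HERC5, the main ligase that attaches ISG15, had a wider gap, at 9.40, 8.49, 9.03 and 10.2 TPM in UM-UC-3 and at 0.90, 0.53, 0.14 and 0.28 TPM in RT112. The Scr means differed 12.5-fold (log2 difference -3.51, SE 0.31, adjusted p = 0.002). HERC6, its relative, was higher in RT112 (1.08, SE 0.21, adjusted p = 0.0168). UBA7, which activates ISG15, and USP18, which removes it and restrains receptor signalling, did not pass, with 95% intervals of the log2 difference from -2.43 to 0.73 and from -1.16 to 0.02.

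In the group of PARP and ubiquitin ligase genes, 3 of 5 were higher in RT112 and 1 in UM-UC-3. TRIM22, an antiviral ubiquitin ligase, stood at 0.52, 0.54, 0.80 and 1.03 TPM in UM-UC-3 and at 21.4, 30.5, 25.03 and 22.99 TPM in RT112, a 49.0-fold difference of the Scr means (log2 difference 5.35, SE 0.24, adjusted p = 0.00054). PARP9 and DTX3L, whose products form a complex that modifies histones, were both higher in RT112, with log2 differences of 1.00 (SE 0.13, adjusted p = 0.00528) and 0.59 (SE 0.13, adjusted p = 0.0239). TRIM21, a cytosolic antibody receptor, was higher in UM-UC-3 (-0.83, SE 0.21, adjusted p = 0.033). PARP14 did not pass in Scr.

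The small interferon-induced proteins and others counted 3 genes higher in RT112, 6 higher in UM-UC-3 and 3 that did not pass. IFI44 stood at 57.3, 53.05, 54.1 and 56.0 TPM in UM-UC-3 and at 0.49, 0.41, 0.35 and 0.40 TPM in RT112. This was a 123-fold difference in Scr (log2 difference -6.65, SE 0.16, adjusted p = 0.000275), with an estimated 13 to 16 reads in each RT112 library. Its neighbour IFI44L was at 0.37 to 1.57 TPM in UM-UC-3 and listed at 0 in 3 of the 4 RT112 libraries, with 0.08 TPM in the other (adjusted p = 0.0181). ISG20, an exonuclease that degrades viral RNA, stood at 20.6, 16.6, 12.7 and 14.6 TPM in UM-UC-3 and at 0.36, 0.11, 1.01 and 0.75 TPM in RT112, with a log2 difference of -5.90 (SE 0.46, adjusted p = 0.0015). The ratio of its means was 79.1 in Scr, 51.6 without RT112 Scr replicate 2, 169 without RT112 Scr replicate 1 and 15.5 in siPAI-1. IFI6, a protein that counters cell death, stood at 25.5, 25.6, 19.2 and 21.8 TPM in UM-UC-3 and at 0.63, 1.23, 2.00 and 1.46 TPM in RT112, 27.4-fold apart (-4.70, SE 0.34, adjusted p = 0.00125). All of these had UM-UC-3 above RT112 in every pair of libraries. SP100, a component of nuclear bodies, and IFI35 were also higher in UM-UC-3, with log2 differences of -1.02 (adjusted p = 0.0211) and -1.98 (adjusted p = 0.0152). The reverse held for EPSTI1, which was at 0, 0, 0 and 0.09 TPM in UM-UC-3 and at 4.54, 7.46, 4.63 and 5.78 TPM in RT112 (adjusted p = 0.000967). SAMD9, an antiviral factor that also restrains growth, stood at 15.5, 15.2, 18.1 and 17.9 TPM in UM-UC-3 and at 49.4, 47.6, 35.7 and 44.6 TPM in RT112 (1.66, SE 0.07, adjusted p = 0.000515). XAF1, a promoter of apoptosis, was at 0.38 to 1.38 TPM in UM-UC-3 and 2.77 to 3.84 TPM in RT112 (2.02, SE 0.55, adjusted p = 0.0428), with a ratio of the Scr means of 2.65 without UM-UC-3 Scr replicate 2 and 8.08 without UM-UC-3 Scr replicate 1.

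The immunoproteasome subunits and guanylate-binding proteins, which respond strongly to interferon gamma, were mostly higher in RT112. PSMB8, a catalytic subunit, stood at 22.1, 26.2, 21.2 and 23.3 TPM in UM-UC-3 and at 77.6, 71.6, 65.9 and 70.2 TPM in RT112 (log2 difference 1.63, SE 0.11, adjusted p = 0.00115). PSMB9, a second catalytic subunit of the same particle, had the opposite order, at 19.05, 21.02, 17.4 and 17.2 TPM in UM-UC-3 and at 11.1, 14.1, 13.1 and 14.6 TPM in RT112 (-0.67, SE 0.16, adjusted p = 0.0277). GBP2, a GTPase that attacks pathogen membranes, stood at 0.60, 0.31, 0.70 and 0.34 TPM in UM-UC-3 and at 25.2, 26.0, 50.2 and 28.6 TPM in RT112, where replicate 1 of siPAI-1 was the highest. The Scr means differed 56.2-fold (5.58, SE 0.32, adjusted p = 0.000817). GBP1 followed with 0.72 to 1.58 TPM in UM-UC-3 and 6.68 to 13.3 TPM in RT112, 14.1-fold apart in Scr (3.66, SE 0.21, adjusted p = 0.000793).

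The difference between the lines was measured again in the siPAI-1 libraries, which share no library with the Scr comparison. There 36 of 53 members (67.9%) passed, 21 higher in RT112 and 15 higher in UM-UC-3, against 52.2% of all 19359 genes tested, with 26.2% higher and 26.1% lower. The members called came to 14 without UM-UC-3 siPAI-1 replicate 1 (26.4%, against 28% of all that were tested), 13 without UM-UC-3 siPAI-1 replicate 2 (24.5%, against 28.3%), 20 without RT112 siPAI-1 replicate 1 (37.7%, against 36.5%) and 22 without RT112 siPAI-1 replicate 2 (41.5%, against 37.7%). Of the 40 genes called in Scr, 34 were called in siPAI-1 too (94.4% of its 36 and 85.0% of the 40), all in the same direction, 20 higher in RT112 and 14 higher in UM-UC-3. Of all 9909 genes called in Scr, 8338 were called in the same direction in siPAI-1 (84.1%, and 82.5% of the 10108 called there). DHX58, TLR3, IRF7, MX1, HERC6 and PSMB9 passed in Scr and missed the threshold in siPAI-1, and OASL and PARP14 did the reverse. The difference of the differences, tested as an interaction further below, was past the threshold for none of these.

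Several of the genes are neighbours. With a distance of at most 100 kb between genes, 26 of the 53 fall into 11 clusters, and in 3 of these the called members had opposite directions in Scr. How often neighbours differ in this way over all genes was not computed. Of all genes tested in Scr, 25.3% were called higher and 26.3% lower in RT112. On chromosome 10, IFIT2 (chr10:89302046-89309271) and IFIT3 were higher in RT112 and IFIT1 (chr10:89392623-89406487) in UM-UC-3. On chromosome 4, HERC6 (chr4:88378852-88443097) was higher in RT112 and HERC5 (chr4:88457119-88506163) in UM-UC-3. On chromosome 6, PSMB8 (chr6:32840717-32844679) was higher in RT112 and PSMB9 (chr6:32854192-32859851) in UM-UC-3, and a noncoding gene, PSMB8-AS1, overlaps PSMB8. Among siPAI-1 libraries HERC6 and PSMB9 missed the threshold (limma adjusted p = 0.258 and 0.0608). PSMB9 and IFIT3 also missed it in Scr under some of the other settings. In other clusters the members shared a direction, as for GBP1 and GBP2, MX1 and MX2, OAS1 and OAS3, and PARP9 and DTX3L. IFITM2 and IFITM3 were both high in UM-UC-3 while IFITM1, which lies between them, was at most at 0.57 TPM. SAMD9 and its relative SAMD9L did not move together, since SAMD9L lay at 2.98 to 4.67 TPM in UM-UC-3 and 2.88 to 4.29 TPM in RT112. The pairs PARP9 and DTX3L, and CMPK2 and RSAD2, overlap in part, and reads in the shared stretch can be told apart only where the counting used strand.

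**Figure D3:**
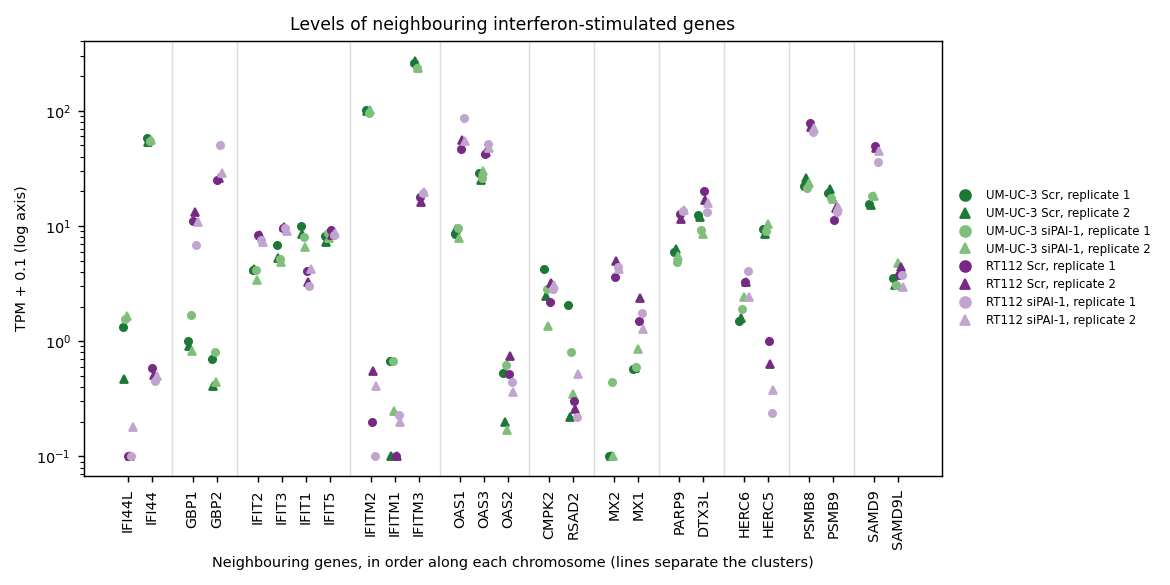
Levels (TPM + 0.1, vertical log axis) of the 26 genes in 11 clusters of neighbours, in order along each chromosome (horizontal axis), with a point per library, coloured by cell line and siRNA and shaped by replicate. UM-UC-3 lies above RT112 for IFIT1, HERC5 and PSMB9 and below it for their neighbours IFIT2, HERC6 and PSMB8.

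The genes that make, receive and relay interferon were described beside the 53. Of 10 interferon genes, 8 (IFNA1, IFNA2, IFNB1, IFNW1, IFNG, IFNL1, IFNL2 and IFNL3) were listed at 0 in all 8 libraries, and IFNE and IFNK did not exceed 0.03 and 0.09 TPM. All 6 receptor genes differed between the lines in Scr. In that comparison 51.6% of all genes tested passed, and 64.6% of those averaging 1 TPM or more. IFNAR1 and IFNAR2, the subunits of the type I receptor, were at 20.96, 14.7, 22.7 and 19.05 TPM and at 14.3, 10.6, 13.2 and 10.5 TPM in UM-UC-3, and at 43.3 to 48.8 TPM and 30.7 to 34.0 TPM in RT112, each with a log2 difference of 1.36 (adjusted p = 0.00735 and 0.00503). IFNGR1 and IFNGR2, for interferon gamma, were higher in RT112 by 0.38 and 0.85 on the log2 scale (adjusted p = 0.0119 and 0.00164). The interferon lambda receptor split, with IFNLR1 at most at 0.01 TPM in UM-UC-3 and at 1.76, 3.40, 2.60 and 2.59 TPM in RT112, and its partner IL10RB at 12.5 to 13.5 TPM in UM-UC-3 and 1.15 to 2.08 TPM in RT112 (log2 difference -3.09, SE 0.27, adjusted p = 0.002). Of the 3 receptor kinases only TYK2 passed, with a log2 difference of -0.56 (adjusted p = 0.0294), and JAK1 was at 53.9 to 71.0 TPM in every library.

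Of the 12 adaptors and kinases between sensor and interferon, 4 were higher in RT112 Scr, 5 were lower and 2 did not pass, while ZBP1 was at 0 in all Scr libraries. Over all genes tested in Scr, 25.3% were higher in RT112 and 26.3% were lower. MYD88, the adaptor of most Toll-like receptors, was higher in RT112, at 45.8 to 56.3 TPM against 5.08 to 6.92 TPM in Scr (log2 difference 3.08, SE 0.20, adjusted p = 0.00104), whereas TICAM1, the adaptor of TLR3, was lower (-1.48, SE 0.12, adjusted p = 0.00171). MB21D1, which encodes the DNA sensor cGAS, was lower in RT112, at 2.13 to 2.36 TPM against 19.5 to 21.8 TPM in UM-UC-3 (-3.11, SE 0.14, adjusted p = 0.000521). TMEM173, which encodes its partner STING, was higher (1.22, SE 0.13, adjusted p = 0.00308). TRAF3, TBK1 and IFI16 were lower in RT112, by log2 differences of -1.58, -0.46 and -0.64, and IKBKE and IRF3 were higher, by 1.14 and 0.87, all with an adjusted p of at most 0.0156. Some of the other regulators differed too. SOCS1 and SOCS3, feedback inhibitors of receptor kinases, were lower in RT112 (-3.25 and -1.63, adjusted p = 0.00136 and 0.00146), as were PIAS1 and NLRC5 (-1.23 and -1.87). ADAR and TRIM25 were higher (0.27 and 0.77, adjusted p = 0.0163 and 0.00369).

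**Figure D4:**
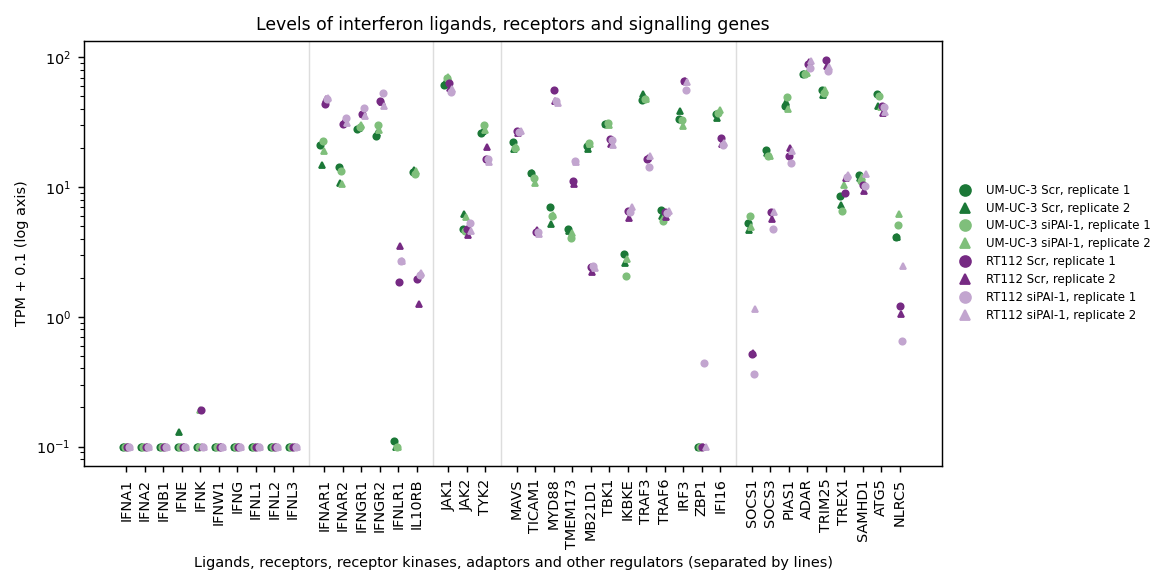
Levels (TPM + 0.1, vertical log axis) of interferon ligands, receptors, receptor kinases, adaptors and other regulators (horizontal axis), with a point per library, coloured by cell line and siRNA and shaped by replicate. Ligands sit at the floor of 0 TPM or just above it, and the lines separate at IFNAR1, IFNLR1, IL10RB, MYD88, MB21D1 and SOCS1.

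The second question was whether siPAI-1 moved these genes. None of the 53 passed in UM-UC-3, as none of all 18528 genes tested did (0.0%) at a limma adjusted p under 0.05, with 1114 genes at an unadjusted p under 0.05. At that unadjusted level, 5 members were lower after siPAI-1 and none was higher, against 3.41% of all genes lower (9.43% of the members) and 2.6% higher. ISG15 stood at 32.2 and 32.2 TPM in Scr and at 24.4 and 23.6 TPM in siPAI-1, with both knock-down libraries below both controls (log2 difference -0.42, SE 0.08, unadjusted p = 0.00249, adjusted p = 0.791). DTX3L was at 12.4 and 11.8 TPM against 9.19 and 8.36 TPM (-0.46, SE 0.13, adjusted p = 0.791) and ISG20 at 20.6 and 16.6 TPM against 12.7 and 14.6 TPM (-0.44, SE 0.15, adjusted p = 0.81). IFI6 and IFITM3 had log2 differences of -0.32 and -0.18 (adjusted p = 0.791 for each). The count of 5 fell with any of the 4 libraries left out, most without UM-UC-3 Scr replicate 2 or siPAI-1 replicate 2. The share of members that were lower was below that of all genes without Scr replicate 2. It stayed above that of all genes when any of the other libraries was left out. Leaving out any of the 4 libraries gave 1 member at an unadjusted p under 0.05 in the higher direction (1.89% or 1.92%, against 3.26% to 4.64% of all genes).

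Without a test, the Scr and siPAI-1 values of UM-UC-3 did not overlap for 15 members that were lower (28.3%, against 17.1% of all genes) and 6 that were higher (11.3%, against 15.1%). The lower ones included IFIT1, IFIT2 and IFIT3, as well as OASL, USP18, PARP9, PLSCR1 and PSMB9. The higher ones were MX1, HERC6, TRIM22, IFI44L, SP100 and SAMD9. The median log2 difference of the 53 genes was -0.04, against -0.01 over all genes, and it moved to -0.12 without Scr replicate 2 and -0.13 without siPAI-1 replicate 1. For the 20 members that averaged 10 TPM or more in UM-UC-3, the point estimates did not exceed 0.46 in size and the 95% intervals of all 20 lay within 0.83 of 0 on the log2 scale. Among these, IFI44 and EIF2AK2 had the values closest to 0, with log2 differences of -0.002 (95% interval -0.18 to 0.18) and 0.01 (-0.19 to 0.21).

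In RT112, none of the members and none of all 18437 genes (0.0%) passed, with 1063 genes at an unadjusted p under 0.05. At that level 2 members were higher, ISG20 and IFITM1 (3.77%, against 3.35% of all genes), and 2 were lower, IFI27 and HERC5 (3.77%, against 2.42%). All 4 had a mean under 1 TPM in RT112. ISG20 was at 0.36 and 0.11 TPM in Scr and at 1.01 and 0.75 TPM in siPAI-1, and HERC5 at 0.90 and 0.53 TPM in Scr and at 0.14 and 0.28 TPM in siPAI-1, with adjusted p = 0.838 for each. Without RT112 siPAI-1 replicate 1, the library that stood apart, 2 members were higher (3.77%, against 6.02% of all genes) and 0 lower (against 2.6%). None was lower without Scr replicate 1 (against 3.38% of all genes) or without Scr replicate 2 (against 3.88%), and 4 were higher without siPAI-1 replicate 2 (7.69%, against 8.45%). Values did not overlap for 10 members that were higher (18.9%, against 18% of all genes) and 12 that were lower (22.6%, against 14.7%). The median log2 difference was -0.03, against 0.01 over all genes. For the 18 members that averaged 10 TPM or more in RT112, the point estimates did not exceed 0.57 in size and the widest 95% bound was 1.29. The libraries of siPAI-1 disagreed for some of the high genes: OAS1 stood at 87.1 and 54.1 TPM, GBP2 at 50.2 and 28.6 TPM and SAMD9 at 35.7 and 44.6 TPM in replicates 1 and 2, so that replicate 1 was farther from Scr (46.7 and 55.1, 25.2 and 26.0, and 49.4 and 47.6 TPM) each time. Among the other pathway genes, TMEM173 was at 10.97 and 10.52 TPM in Scr and 15.7 and 15.5 TPM in siPAI-1 (log2 difference 0.53, SE 0.11, unadjusted p = 0.00616, adjusted p = 0.838).

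**Figure D5:**
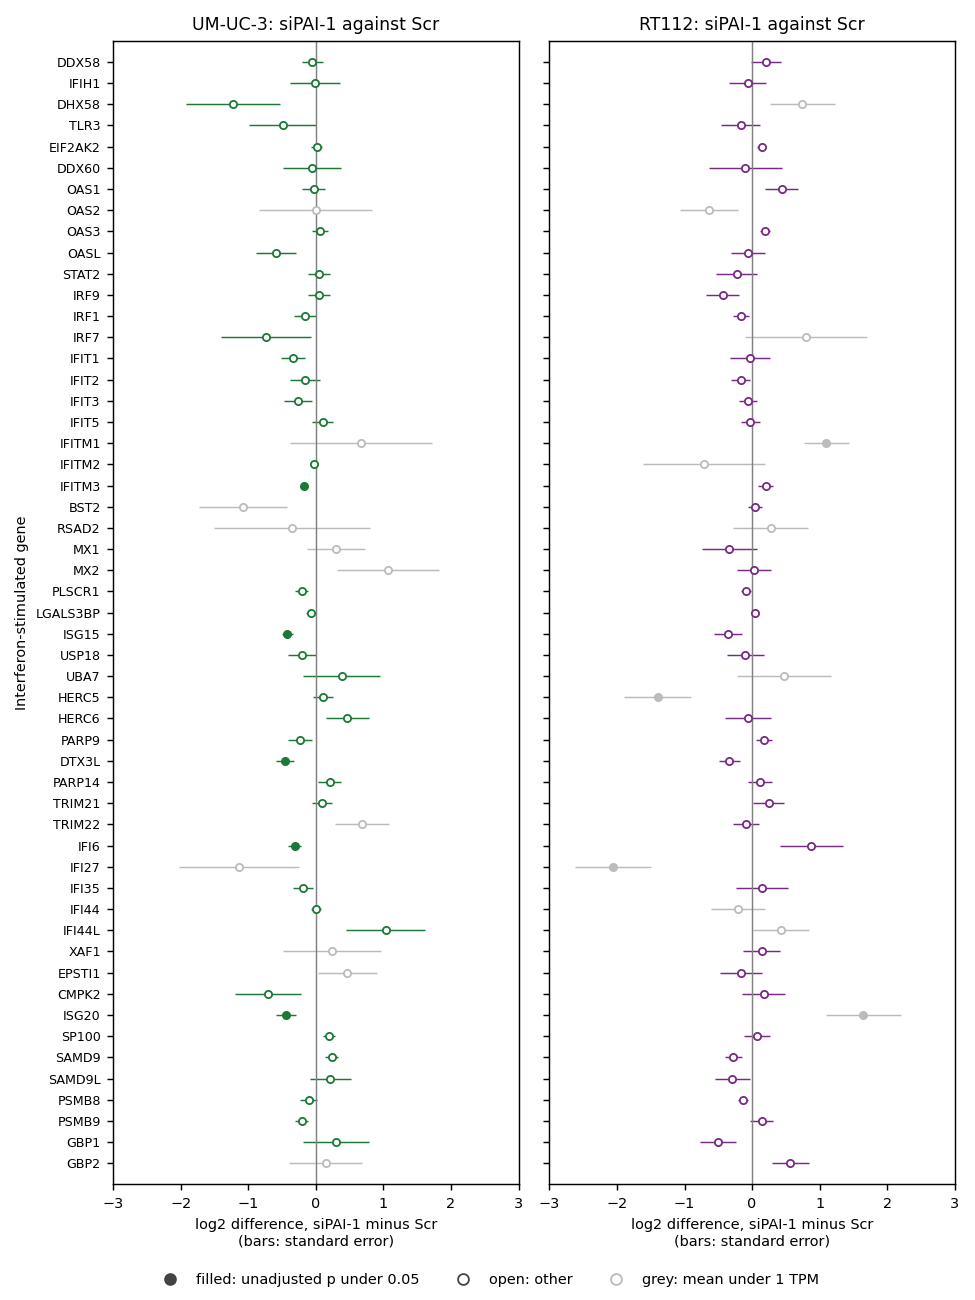
Log2 difference between siPAI-1 and Scr (horizontal axes) for each interferon-stimulated gene (vertical axis) in UM-UC-3 and RT112, with standard errors as bars, filled points where the unadjusted p was under 0.05 and grey points where the mean over the line was under 1 TPM. ISG15, DTX3L, ISG20, IFI6 and IFITM3 are filled in UM-UC-3, no gene passed the adjusted threshold in either line, and the filled points of RT112 are all grey.

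The members' differences had the same sign in both lines for 28 of the 53 genes (52.8%, 11 higher and 17 lower), against 48.7% of the 16691 genes tested in both. The interaction of siRNA and cell line was past an adjusted p of 0.05 for none of the members and none of all 20274 genes (0.0%). At an unadjusted p under 0.05, 3 members had a more positive difference in RT112 (5.66%, against 4.0% of all genes), namely IFITM3, IFI6 and ISG20, and 2 a more negative one (3.77%, against 2.76%), HERC5 and SAMD9. ISG20 had an interaction of 2.08 (SE 0.55, adjusted p = 0.632), and IFITM3, whose levels are high in UM-UC-3, had 0.38 (SE 0.10, adjusted p = 0.632). With 2 libraries a group, a difference that did not pass is not shown to be absent.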

How the data were processed

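The 53 genes and the other gene lists were chosen with earlier results of these data known. RNA was made into libraries with a stranded mRNA kit. The authors deposited 2 tables, with 1 TPM and 1 FPKM value for each gene and library and 2 decimals per value. The submitters' processing notes name STAR 2.5.0 and RSEM 1.2.25 and GRCh38, and the deposited columns end in genes.results, the ending of RSEM's gene output. Both point to RSEM for the TPM and FPKM values. The methods name cutadapt and, for gene counts, featureCounts, without versions. The study tested counts, and since the values used here are not counts, limma was used in place of its test. The FPKM values served for the depth estimate and as an alternative unit. The 92 ERCC rows were left out, and all value columns were matched to samples by name.

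Each comparison was fitted with limma 3.58.1 in R 4.3.3 (lmFit and two-sided eBayes with trend) after the transformation log2(TPM + 0.1), over the 4 libraries compared (all 8 for the interaction), with Benjamini-Hochberg adjustment over all genes above 0 TPM in at least 1 of these libraries. A lower TPM pseudocount makes low genes differ more. The tests were checked on simulated data, in which 200 genes were changed 4-fold: 166 of these were called among 18086 genes for the UM-UC-3 knock-down, 181 among 18081 for RT112, 174 among 18860 for the line difference in Scr and 176 among 19010 for that in siPAI-1, with 0 false calls. The changed genes were drawn only from those with higher levels. A single setting of the spread served for every gene and was not taken from the replicates. These rates therefore do not give the power or the error of the tests on the real values. Python 3.11.15, numpy 2.4.6, pandas 2.3.3 and matplotlib 3.10.9 were used for counts, motif searches and plots. Genes named were those averaging 10 TPM or more in a group, those past an adjusted p of 0.05 (up to 25 a comparison, by size), those with an unadjusted p under 0.05 in a knock-down comparison or the interaction, and pathway genes past the threshold or at 0 throughout. Members outside this rule that are named beside a family or cluster were chosen after their values were seen. Alternatives were the pseudocount (1 and 0.01 TPM), FPKM, a median-ratio rescaling, a minimum mean of 1 TPM, the replicate number as a block, 1 model of all 8 libraries, eBayes with no trend and leaving out each library. Promoters and positions came from RefSeq on GRCh38.p14, and DDX58 was matched there as RIGI. Estimates of reads per gene used the longest annotated transcript and an assumed depth between 20 and 45 M reads, and carry counting error only. They are upper estimates for transcript length but not for depth, since a larger depth would raise them. No protein sequence was used here. The check of the siRNA target and some pathway and marker genes are not reported here.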

Additional observations from a re-analysis of the deposited data

Results flagged for a closer look

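For 6 genes, both siPAI-1 libraries lay above both Scr libraries in 1 cell line and below them in the other (11.3% of the 53, against 6.25% of the 16691 genes tested in both lines). None had an interaction past the adjusted threshold in limma. ISG20 had an interaction of 2.084 on the log2 scale (RT112 difference minus UM-UC-3 difference, SE 0.554, adjusted p = 0.632), the difference being 1.644 in RT112 and -0.44 in UM-UC-3. DHX58 had 1.971 (adjusted p = 0.772), IFI6 1.193 (adjusted p = 0.694), PARP9 0.41 (adjusted p = 0.75) and IFITM3 0.378 (adjusted p = 0.632). SAMD9 had the opposite sign, with -0.512 (adjusted p = 0.642), and its RT112 siPAI-1 values differed between replicates. DHX58, IFI6 and ISG20 were at or below 2.00 TPM in every RT112 library.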

How the results depend on the processing

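Among 1592 values computed under other settings, no difference past its threshold changed sign. Of the 40 line differences called in Scr, 29 were past the threshold under all 8 settings that kept every library, 10 missed it under some and DHX58 had no value with the minimum of 1 TPM. Those 10 were EIF2AK2, IFI44L, IFIH1, IFIT3, IRF7, PSMB9, SP100, TLR3, TRIM21 and XAF1. In siPAI-1, 29 of 36 were past the threshold under all, 6 missed it under some (IFIH1, IFIT1, ISG15, MX2, OASL and XAF1) and IFI44L had no value with that minimum. Leaving out single libraries moved the counts most. Members called ranged from 17 to 21 in Scr and from 13 to 22 in siPAI-1, genes called from 5698 to 6564 and from 5294 to 7142, and genes called for the interaction from 0 to 123. The members' median log2 difference ranged from -0.129 to -0.017 for the UM-UC-3 knock-down, from -0.035 to 0.004 for the RT112 knock-down and from 0.007 to 0.138 for the interaction. Genes called for the UM-UC-3 knock-down came to 1 when a mean of at least 1 TPM was required, for the RT112 knock-down to 2 with 1 fit over all 8 libraries, and for the interaction to 7 with eBayes without trend. The causes were not tested. The replicate numbers gave no sign of pairing, with correlations of replicate differences of -0.043 in RT112 and 0.044 in UM-UC-3. Low correlations do not show that the samples were unpaired. With the replicate number as a block, 38 members were called in Scr, 32 in siPAI-1 and 0 in the knock-down and interaction comparisons. With 2 libraries a group and values rounded to 2 decimals, differences of genes under 1 TPM rest on few reads.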
